A study of Rattus norvegicus with 29 samples.

Results

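Refeeding after a fast was examined in control rats by setting 5 rats that had been fasted for 14 h and then given food for 6 h (refed) against 5 rats that had been fasted for 14 h (fasted). All were male Wistar rats of 6 months kept on standard chow, and the comparison used 10 of the 29 arrays of the study, chosen by their labels. The other arrays held 4 control rats sampled while eating (fed) and 15 rats offered a fat-rich cafeteria diet beside chow for 4 months, of which 5 were refed, 5 fasted and 5 fed. Those groups entered the same fit, so that all 29 arrays set the estimate of the spread, and they are used below only where they are named. Blood was taken from the saphenous vein into heparin, peripheral blood mononuclear cells (PBMC, the lymphocytes and monocytes of the blood) were isolated on a Ficoll gradient, and their RNA was amplified linearly. Each array carried the RNA of 1 rat in Cy5 and a pool of RNA from all groups in Cy3, and the dyes were not swapped. Values are log2 ratios of the rat over the pool, so that 0 is the level of the pool, and changes are refed minus fasted on that scale. Rats are named by the number in their label. No label gives the cage or the day on which a rat was bled.

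Blood mononuclear cells see the change from fasting to feeding through insulin, glucose, amino acids, fatty acids and glucocorticoids. In many cells insulin and nutrients restrain the FOXO and ATF4 programmes, and SREBP proteins drive sterol and fatty acid synthesis, while fasting favours the uptake of fatty acids into mitochondria through CPT1. The time of meals is also a signal for the peripheral clock, in which PER and CRY proteins repress the activators CLOCK and BMAL1, and DBP and TEF oppose NFIL3 at D-box elements. Ficoll preparations of blood carry platelets along with the mononuclear cells. Platelets have no nucleus, but they hold RNA inherited from the megakaryocyte, with transcripts for adhesion receptors, granule proteins and a contractile cytoskeleton.

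On refed arrays Cy5 exceeded background clearly at 53.3% to 66.5% of spots, and on fasted arrays at 60.6% to 64.7%. Median Cy5 signal was 115.4 to 142.8 units on refed arrays and 108.1 to 142.6 units on fasted arrays. Of 24367 genes tested, 11264 carried a symbol. Markers of the labelled cells were measured: 18 of 20 listed T cell genes, 17 of 20 monocyte genes, 11 of 17 B cell genes and 17 of 19 natural killer genes passed the signal filter. So did 50 of 63 platelet and megakaryocyte genes (among those not tested are the defining receptors Gp1ba, Gp6 and Itga2b), 13 of 16 neutrophil genes and 18 of 23 erythroid genes. Arrays were scanned on 1 day from 8 slides, and images were extracted in 2 runs, of which the first held 2 of 5 refed and 4 of 5 fasted arrays. Each slide belonged to 1 run only. Median Cy3 signal, that of the common pool, was 97.5 to 106.4 units on arrays of the first run. On arrays of the second run it was 85.6 to 95.5 units, so signal levels differed between runs that the groups did not share evenly.

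In limma's moderated test with Benjamini-Hochberg adjustment, 2262 genes (9.28% of those tested) passed an adjusted p of 0.05 between refed and fasted control rats. Of these, 805 were higher in refed rats (3.3% of genes, median change 0.30) and 1457 were lower (5.98%, median change -0.59). Falls reached much larger sizes than rises: 308 falls but only 3 rises exceeded 1 on the log2 scale. Refed and fasted rats did not overlap for 509 of the 805 rises and 1179 of the 1457 falls. Over all genes tested, the groups did not overlap with refed higher for 4.08% and with refed lower for 6.07%. The median change over all genes was 0.010. The split between directions moved with the scaling. Agilent's processed signals gave 1119 rises and 1351 falls, Cy5 alone with quantile normalization gave 1199 and 1208, and median centring without loess gave 25 and 784. The authors' deposited value table gave 2967 rises and 975 falls among 17229 genes, with the median of all genes shifted up by 0.15, and 960 rises and 1466 falls once each array was centred on its median. Under median centring nearly all rises named below, and some falls, therefore missed the threshold.

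Among the gene lists examined, those of platelets and megakaryocytes held the largest shares of lower transcripts. Falls outside the lists were not grouped. Of 50 platelet and megakaryocyte genes measured, 36 fell in refed rats and 0 rose, where 5.98% of all genes fell. Their median change was -1.07, and 45 of the 50 were below 0. In RNA from a mixed cell preparation, fewer platelets and less RNA per platelet cannot be told apart. The fall covered every role on the lists. It was seen in 7 of 8 adhesion receptors (median -1.38), 13 of 15 granule and surface genes (-1.30), 7 of 10 signalling genes and enzymes (-0.93), 6 of 12 cytoskeletal genes (-0.41) and 3 of 5 megakaryocyte transcription factors (-0.75).

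Among the adhesion receptors measured, 7 of 8 fell. Gp1bb, a chain of the receptor for von Willebrand factor, had log2 ratios of -1.03, -1.89, -0.84, -0.51 and -0.72 in refed rats 3, 6, 9, 12 and 15, against 0.80, 1.04, 1.01, 0.55 and 0.82 in fasted rats 2, 5, 8, 11 and 14. The groups did not overlap, and the change was -1.84 ± 0.37 (SE, adjusted p = 0.00232), or 3.58-fold lower. Gp9 (-1.54) and Gp5 (-1.41, adjusted p = 0.018), which form a complex with it, fell as well. Clec1b, the platelet receptor for podoplanin, had -0.93, -1.49, -0.65, 0.52 and -0.56 in refed rats, against 0.74, 1.20, 1.096, 0.77 and 0.96 in fasted rats. Refed rat 12 was the highest of its group, but it too lay below each fasted rat, and the change was -1.57 ± 0.34 (adjusted p = 0.00332). Cd226 (-1.35), Cd9 (-1.26) and the fibrinogen receptor chain Itgb3 (-0.96) completed the 7 receptors. The remaining receptor of the 8, Itga2, did not pass, with a change of -0.10.

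Among granule proteins, the chemokine Pf4 was the most variable in refed rats. It had 0.62, -1.62, -0.72, 0.12 and -0.20 in refed rats, against 1.17, 1.50, 1.86, 1.08 and 1.55 in fasted rats, a change of -1.79 ± 0.43 (adjusted p = 0.00775). All 5 refed rats lay below all 5 fasted rats, but rat 3 differed from fasted rat 11 on the same slide by only -0.46. Mmrn1, which binds factor V in the alpha granule, changed by -1.84, Ltbp1, which holds latent TGF-beta, by -1.77, the chaperone Clu by -1.68, and the transglutaminase F13a1 by -1.58. Vwf changed by -1.18 (adjusted p = 0.019) and Ppbp by -1.27 (adjusted p = 0.0347). Their adjusted p was as high as 0.0672 for Vwf (without refed rat 6) and 0.0876 for Ppbp (without fasted rat 14) when 1 rat was left out.

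Receptors and enzymes of platelet activation fell too. P2ry12, the ADP receptor blocked by clopidogrel, had -1.30, -1.40, -0.45, -0.36 and -0.80 in refed rats, against 0.64, 1.13, 0.71, 0.63 and 0.50 in fasted rats. Its change was -1.59 ± 0.29 (adjusted p = 0.00157). The cation channel Trpc6 changed by -1.18 ± 0.18 (adjusted p = 0.000808), with refed rats at -0.78 to -0.06 and fasted rats at 0.55 to 1.20. Ptgs1, the cyclooxygenase that makes the precursor of thromboxane, changed by -1.63, and Myl9, a regulatory light chain of myosin in the contractile cytoskeleton, by -1.91. Transcription factors of the megakaryocyte were also lower: Nfe2 changed by -1.60 ± 0.33, Tal1 by -1.14 ± 0.21 and Gata1 by -0.75 ± 0.19 (adjusted p = 0.00287, 0.00161 and 0.0109 in that order). Across the 10 settings that left out 1 rat, 32 to 36 platelet genes fell, the lowest count without refed rat 3.

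**Figure D1:**
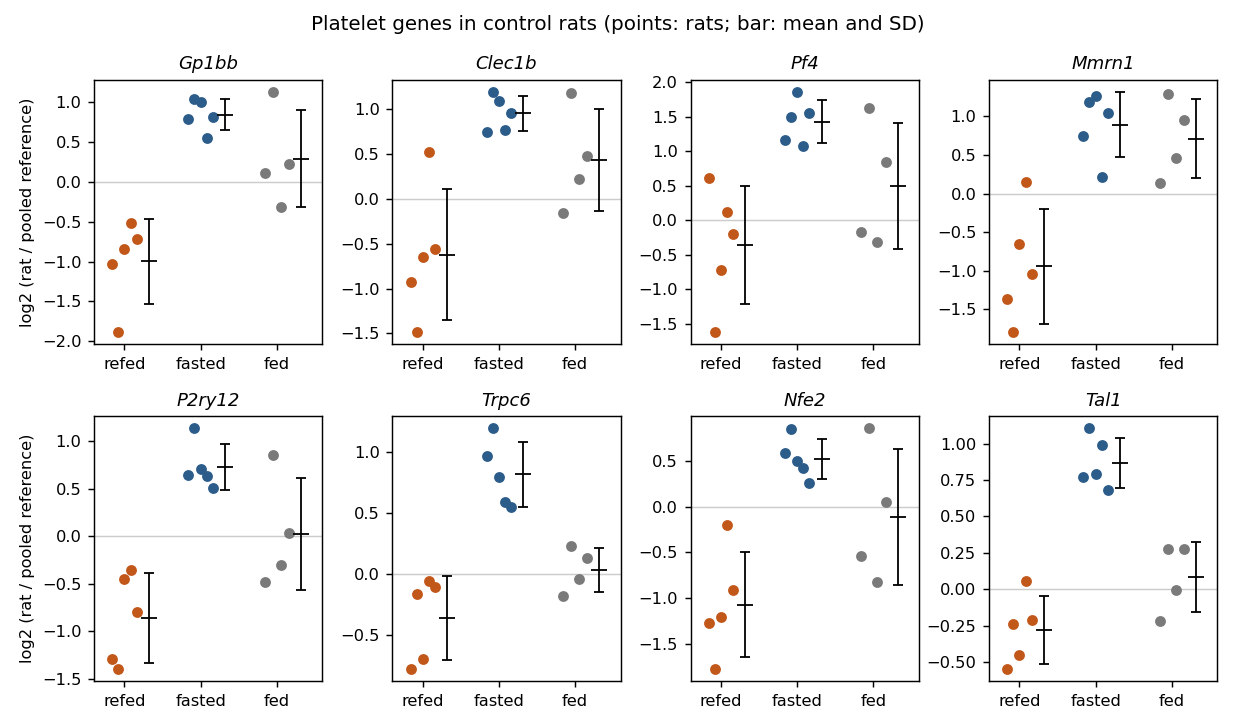
Log2 ratio of rat over pool for 8 platelet and megakaryocyte genes in refed, fasted and fed control rats; points are rats, the bar is the mean with 1 SD. In Gp1bb, for example, refed rats lie between -1.89 and -0.51 and fasted rats between 0.55 and 1.04, while the 4 fed rats spread from -0.32 to 1.13.

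The mean of 23 measured adhesion receptor and granule genes gives 1 platelet value per rat. It was -0.67 ± 0.34 in refed rats (SD, n = 5, range -1.11 to -0.18), 0.57 ± 0.10 in fasted rats (SD, n = 5, 0.42 to 0.70) and 0.14 ± 0.50 in fed rats (SD, n = 4, -0.24 to 0.85). Refed rats were thus below fasted rats with no overlap, and fed rats spanned the gap. On the 3 slides that held a refed and a fasted rat, the difference was -1.21, -1.71 and -1.24, and it was -1.55 within the first extraction run and -1.01 within the second.

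GATA and ETS family factors act together at megakaryocyte promoters, so the sequence before the start sites of these genes was read from RefSeq (GRCr8). The motifs were AGATAA or TGATAA for GATA and AGGAAG for ETS, on both strands of the 250 bases before the start. Of the 36 platelet genes that fell, 29 had a promoter in the table. A GATA motif was found in 6 of them (20.7%) against 16.6% of 27457 promoters, and an ETS motif in 14 (48.3%) against 29.4%. The stretches below are shown because each holds both motifs, in capitals and in either orientation. Clec1b and Gp5 are among the platelet genes just counted, and Rgs18 is on none of the platelet lists and is not in those counts. Clec1b is at chr4:164533979-164534108 on the plus strand, Gp5 at chr11:83948377-83948506 on the plus strand, and Rgs18, a regulator of G protein signalling that is abundant in platelets, at chr13:59066423-59066572 on the minus strand. A match is a description of the letters and does not show that a factor binds.
Clec1b: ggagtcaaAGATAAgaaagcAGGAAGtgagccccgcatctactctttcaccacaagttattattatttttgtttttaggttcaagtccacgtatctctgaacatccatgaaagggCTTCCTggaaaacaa
Gp5: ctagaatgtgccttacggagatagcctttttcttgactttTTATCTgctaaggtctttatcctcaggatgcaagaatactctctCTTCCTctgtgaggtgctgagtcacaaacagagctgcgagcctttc
Rgs18: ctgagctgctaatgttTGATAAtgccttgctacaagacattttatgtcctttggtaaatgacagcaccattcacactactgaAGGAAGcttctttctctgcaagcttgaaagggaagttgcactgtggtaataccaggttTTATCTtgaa

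Large falls were also measured in genes that are on none of the platelet lists. Rgs18, whose promoter is shown above, had -1.12, -1.44, -1.03, 0.10 and -0.90 in refed rats, against 0.62, 0.96, 0.73, 0.72 and 1.24 in fasted rats, a change of -1.73 ± 0.28 (adjusted p = 0.000872). Me1, the malic enzyme that supplies NADPH for fatty acid synthesis, changed by -2.16 ± 0.36, Cst3, a secreted inhibitor of cysteine proteases, by -2.03 and Tsc22d1, a leucine zipper regulator, by -1.84. Fth1, the heavy chain of ferritin, changed by -1.72, although refed rat 12 (0.38) overlapped the lowest fasted rats (0.28 and 0.35). Serpinb11, a serpin, had the largest fall of the genes named (-2.74 ± 0.82, adjusted p = 0.0322), with refed rats from -3.48 to 0.79, overlapping fasted rats at 0.69 to 2.04. Its adjusted p was 0.107 without refed rat 9, 0.102 without refed rat 3, 0.0725 without fasted rat 5 and 0.0708 without fasted rat 8. The smallest p-values among the falls belonged to smaller and tighter changes. Scamp1, a carrier membrane protein, had -0.27, -0.29, -0.43, 0.16 and -0.12 in refed rats, against 0.76, 0.61, 0.75, 1.07 and 0.73 in fasted rats (change -0.97 ± 0.14, adjusted p = 0.000687). The kinase genes Uhmk1 (-0.55 ± 0.08) and Tyro3 (-0.45 ± 0.07) each had an adjusted p of 0.000808 and groups that did not overlap.

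Because the platelet value moved with the groups, the comparison was repeated with that value as a covariate. Rises and falls behaved differently. The 805 rises had a median change of 0.28 with the covariate and 0.30 without it, and all 805 had the same sign. The 1457 falls had a median change of -0.17 with the covariate and -0.59 without it, and 1296 had the same sign. The median standard error of the rises was 0.111 with the covariate and 0.0804 without it, and 7 genes (0.0287%) passed the adjusted threshold. At an unadjusted p of 0.05, 576 of the rises and 409 of the falls passed. Of the 7, 3 have a symbol: Klhl8, the chromatin reader Phf20 and the replication factor subunit Rfc1, all higher in refed rats and the last 2 chosen after their values were seen. The 50 platelet genes themselves had a median of -0.0065 with the covariate. It is the mean of 23 of them, whose average change it fixes at about 0 by construction. The platelet signalling, cytoskeletal and megakaryocyte transcription lists are not in that mean. Their medians with the covariate were 0.0046, -0.043 and -0.055 in that order. Off those lists, Uhmk1 changed by -0.55 with the covariate (unadjusted p = 9.1e-05), the same as without it, and Scamp1 by -0.71 (unadjusted p = 0.00082). Me1 changed by -0.51 with the covariate and -2.16 without it, and Cst3 by -0.44 with it and -2.03 without it. The platelet value and the feeding state differ between the same rats, and their parts in these changes cannot be told apart.

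**Figure D2:**
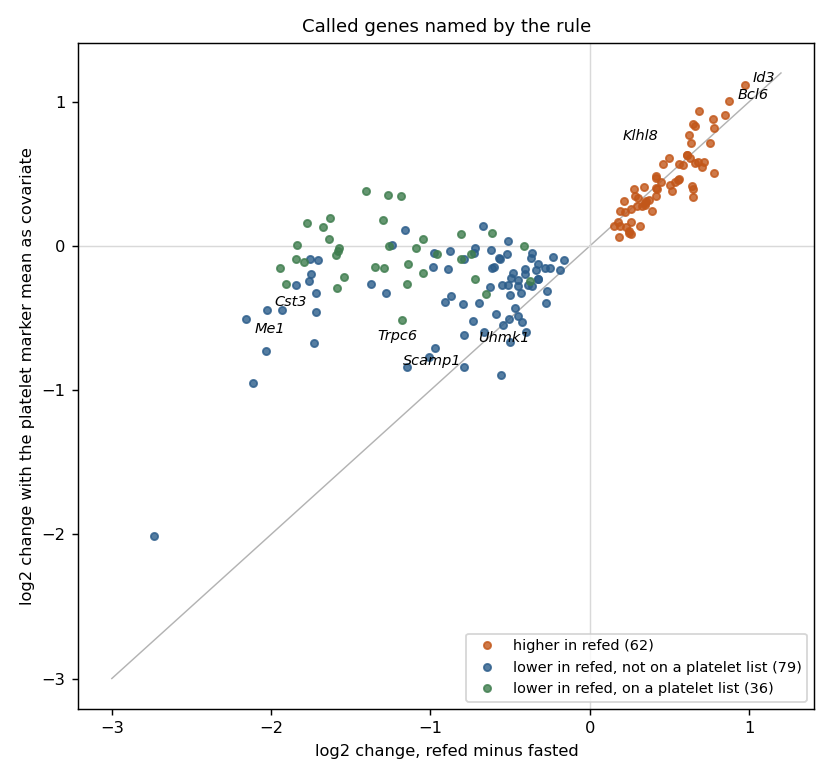
Each point is a called gene named by the rule; the horizontal axis is its log2 change between refed and fasted control rats and the vertical axis the change with the platelet mean as a covariate, with the line of equal values. The 62 genes higher in refed rats lie along the line, while the 79 lower genes off the platelet lists and the 36 on them lie mostly between the line and 0.

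The named rises included transcriptional regulators of lymphocytes. Bcl6, a transcriptional repressor best known for directing germinal centre B cells and follicular helper T cells, had -0.15, 0.20, 0.45, 0.55 and -0.21 in refed rats, against -0.82, -0.70, -0.63, -0.60 and -0.78 in fasted rats. The groups did not overlap, and the change was 0.88 ± 0.15 (adjusted p = 0.0013), or 1.83-fold. With the platelet covariate in limma the change was 1.00 (unadjusted p = 8.7e-05, adjusted p = 0.056). Id3, which inhibits the E proteins of lymphocyte development, had -0.12, 0.36, 0.31, 0.35 and -0.0003 in refed rats, against -0.90, -0.61, -0.92, -0.66 and -0.87 in fasted rats (0.97 ± 0.19, adjusted p = 0.00239). Fasted rats lay close together for both genes, and the spread came from refed rats. Of 26 lymphocyte transcription factors measured, 4 rose and 0 fell, where 3.3% of all genes rose; the others were Klf3 (0.28) and Ikzf1 (0.25). The adjusted p of Ikzf1 was as high as 0.0978 (without fasted rat 14). The median of the 26 was 0.053.

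Other genes with large or precise rises included surface receptors. Lpar6, a receptor for lysophosphatidic acid, had 0.14, 0.35, 0.08, 0.58 and -0.02 in refed rats, against -0.30, -0.17, -0.32, -0.30 and -0.54 in fasted rats, which did not overlap (0.55 ± 0.10, adjusted p = 0.00119). Klhl8, an adaptor of a ubiquitin ligase, had the smallest adjusted p among the rises that the rule names (0.61 ± 0.08, adjusted p = 0.000514). It had 0.12, 0.29, 0.20, 0.30 and 0.08 in refed rats, against -0.49, -0.19, -0.61, -0.44 and -0.31 in fasted rats, and its change with the platelet covariate was 0.63 (adjusted p = 0.0485). Spn (0.64), the sialophorin of leukocyte surfaces, Gimap5 (0.72), a GTPase of lymphocyte survival, and Alas1 (0.45 ± 0.07, adjusted p = 0.000872), the first enzyme of haem synthesis, also rose. With median centring, adjusted p was 0.25 for Bcl6, 0.074 for Id3 and 0.070 for Klhl8.

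Of 18 clock genes measured, 5 rose and 2 fell, where 3.3% of all genes rose and 5.98% fell. The list's median change was 0.032. Per2, a repressor of the clock, had 0.27, 0.29, 0.51, 0.76 and 0.26 in refed rats, against -0.60, -0.21, -0.19, -0.03 and -0.18 in fasted rats and -0.02, 0.06, 0.21 and -0.08 in fed rats. Refed rats lay above every fasted and every fed rat, and the change from fasted rats was 0.66 ± 0.11 (adjusted p = 0.000835). Dbp, an activator at D-box elements, had 0.13, 0.42, 0.28, 0.34 and 0.27 in refed rats, against -0.34, -0.09, -0.28, -0.32 and -0.45 in fasted rats (0.58 ± 0.12, adjusted p = 0.00298). Nfil3, which represses at the same elements, went the other way. It had -0.01, -0.29, -0.60, -0.50 and -0.26 in refed rats, against 0.16, 0.28, 0.59, 0.02 and 0.61 in fasted rats (-0.67 ± 0.16, adjusted p = 0.00692). Refed rat 3 and fasted rat 11, which shared a slide, differed by only -0.03 in Nfil3. Nr1d1, the nuclear receptor that represses Bmal1, rose by 0.52 ± 0.12, and Csnk1e, a kinase that marks PER proteins for breakdown, fell by 0.56. Tef (0.23) and Cry2 (0.19) rose least, with adjusted p of up to 0.147 (Tef, without fasted rat 2) and 0.100 (Cry2, without fasted rat 14). Median centring kept no rise and 2 falls of this list. The labels give no clock time for the samples, so feeding and the 6 h between the end of the fast and sampling cannot be told apart.

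The D-box letters TTATGTAA were searched on both strands of the 250 bases before the start of the called clock genes, all 7 of which had a promoter in the RefSeq table. They occurred in Per2 alone, 192 bases before the start, and in 0.816% of all promoters. The E-box letters CACGTG, bound by CLOCK and BMAL1, occurred in 1 of the 7, Tef, and in 5.79% of all promoters. The stretch of the Per2 promoter at chr9:99497114-99497213 (GRCr8, minus strand) is given with the D-box in capitals, as the clearest match among genes that rose.
Per2: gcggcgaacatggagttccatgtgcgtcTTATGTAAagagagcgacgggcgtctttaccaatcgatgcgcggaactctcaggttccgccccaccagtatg

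**Figure D3:**
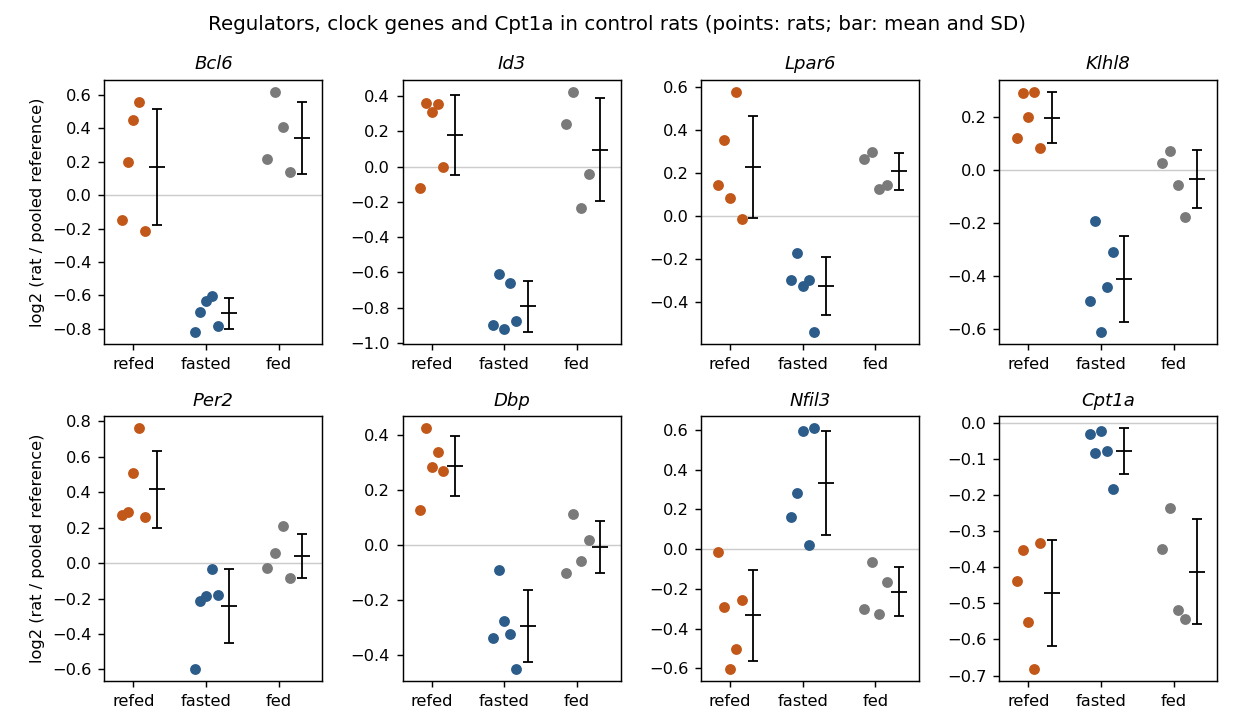
Log2 ratio of rat over pool for 4 of the named rises, 3 clock genes and Cpt1a in refed, fasted and fed control rats; points are rats, the bar is the mean with 1 SD. Refed rats lie above all fasted rats in Bcl6, Id3, Lpar6, Klhl8, Per2 and Dbp, and below them in Nfil3 and Cpt1a.

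In lipid metabolism, some genes of sterol synthesis and efflux rose. Of 28 genes of sterol synthesis and uptake, 5 rose and 0 fell, where 3.3% of all genes rose and 5.98% fell. The median change over the list was 0.12. Msmo1, a demethylating oxidase of cholesterol synthesis, had -0.04, 0.24, 0.34, 0.35 and -0.16 in refed rats, against -0.49, -0.47, -0.38, -0.16 and -0.57 in fasted rats (0.56 ± 0.13, adjusted p = 0.00555). Refed rat 15 met the highest fasted rat at -0.16, and the other refed rats were above all fasted rats. Acat2, a thiolase at the start of the pathway (0.53), and Dhcr7, its last reductase (0.37), rose as well. Fdft1, the squalene synthase (0.35), and the regulator Srebf2 (0.34, adjusted p = 0.0406) reached adjusted p of 0.0585 (without refed rat 9) and 0.129 (without fasted rat 14) when 1 rat was left out. Abcg1, which exports cholesterol from macrophages (0.39 ± 0.09, adjusted p = 0.00664), and Lipa, the lysosomal lipase that frees cholesterol from its esters (0.68 ± 0.16, adjusted p = 0.00752), were the 2 of 10 efflux genes that rose. Median centring kept none of the 5 sterol synthesis rises.

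Cpt1a, the gate for long-chain fatty acids into mitochondria, fell. It had -0.44, -0.35, -0.55, -0.68 and -0.33 in refed rats, against -0.03, -0.08, -0.02, -0.08 and -0.18 in fasted rats and -0.35, -0.24, -0.52 and -0.54 in fed rats. Refed rats lay below every fasted rat and within the range of fed rats or lower, and the change from fasted rats was -0.39 ± 0.08 (adjusted p = 0.00221). The nuclear receptor Pparg, a regulator of lipid handling in macrophages, rose by 0.56 ± 0.12 (adjusted p = 0.0032). Of the 38 genes of fatty acid oxidation and PPAR signalling, 1 rose and 2 fell, near the 3.3% and 5.98% of all genes. The median change of the 38 was 0.023. Among 23 lipogenic genes, 3 rose and 3 fell, against those same shares of all genes. The rises were Scd2, a stearoyl-CoA desaturase (0.51), Acsl3, an acyl-CoA synthetase (0.35), and Fasn, the fatty acid synthase (0.26, adjusted p of up to 0.0870 without refed rat 6). The falls were Me1, Fads1, a desaturase of polyunsaturated fatty acids (-0.98), and Elovl5, their elongase (-0.34). With the platelet covariate Fads1 changed by -0.05, and Scd2 by 0.42. Srebf1, the main SREBP of fatty acid synthesis, had 0.15 to 0.38 in refed rats and -0.19 to 0.03 in fasted rats, which did not overlap, but its change of 0.31 had an adjusted p of 0.0705. Of the other genes in the study's metabolic set, Ucp2, Txnip, Lepr, Insr, Scd and Slc27a2 did not pass, and Ppara was not well above background on any refed array.

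Some genes of the amino acid response and of protein folding fell after refeeding. Atf4, the transcription factor translated when amino acids are short, had -0.30, 0.05, -0.24, -0.36 and -0.09 in refed rats, against 0.30, 0.22, 0.43, 0.18 and 0.44 in fasted rats (-0.50 ± 0.09, adjusted p = 0.00161). Its partner in the same response Atf5 (-1.37 ± 0.30, adjusted p = 0.0041), the stress factor Ddit3 (-0.55), the transaminase Gpt2 (-0.41) and the amino acid transporter Slc7a5 (-0.33, adjusted p of up to 0.0652 without refed rat 9) fell too. These were 5 of 19 genes on that list, of which 0 rose, where 5.98% of all genes fell and 3.3% rose. The list median was 0.034. With median centring, 2 of the 19 fell, and the adjusted p of Atf4 in limma was 0.134. With the platelet covariate in limma Atf5 changed by -0.26 and Atf4 by -0.34 (unadjusted p = 0.0098, adjusted p = 0.185).

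Of 25 genes of endoplasmic reticulum folding, 5 fell and 0 rose, where 5.98% of all genes fell and 3.3% rose. Hspa5, the main chaperone of that compartment, had 0.18, -0.11, -0.08, -0.22 and -0.03 in refed rats, against 0.60, 0.25, 0.23, 0.26 and 0.37 in fasted rats (-0.40 ± 0.10, adjusted p = 0.00938). Its change was -0.60 with the platelet covariate (unadjusted p = 7e-05), which did not pass the adjustment over all genes. The co-chaperone Dnajb9 changed by -0.42. With median centring, 0 of the 25 folding genes fell. Fasted rat 2 stood apart in Sec11c (1.75, other fasted rats at most 0.41) and Derl1 (0.73, others at most -0.02), and also in Dnajc3 (1.21, others at most 0.42). The same rat had a mean of 1.87 over 8 plasma cell genes, whose highest value in refed rats was 0.071, and 2.67 in Mzb1, a chaperone of antibody-secreting cells. None of the 8 plasma cell genes passed the limma test (1 fell at an unadjusted p of 0.05). Without fasted rat 2, 3 folding genes fell and 1 rose, and the list's median change was -0.045 in place of -0.23. Adjusted p was then 0.170 for Dnajc3 and 0.0551 for Derl1. The part of plasma cell RNA in this result was not tested beyond that.

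Transcripts that FOXO factors induce in fasting were among the falls. Of 23 insulin and FOXO genes, 5 fell and 0 rose, where 5.98% of all genes fell and 3.3% rose. The list median was -0.025. With median centring, 0 of the 23 fell. Gadd45a, a stress response gene, had -0.29, -0.42, -0.15, -0.35 and -0.22 in refed rats, against -0.13, 0.22, 0.36, 0.11 and 0.55 in fasted rats (-0.51 ± 0.12, adjusted p = 0.00604), with no overlap. Eif4ebp1, the brake on cap-dependent translation (-0.57), and Bnip3, a receptor of mitophagy (-0.43), fell as well. The change of Gadd45a with the platelet covariate was -0.51, that of Bnip3 -0.33 and that of Eif4ebp1 -0.09. The insulin receptor substrate Irs2 (-0.45) and the PI3-kinase subunit Pik3r1 (-0.27) completed the 5, with adjusted p of up to 0.0898 (Irs2, without refed rat 12) and 0.0802 (Pik3r1, without fasted rat 5). Among 28 glycolytic genes, 3 fell and 0 rose, against the same shares of all genes. The falls were Gapdh (-0.88 ± 0.18, adjusted p = 0.00274), Aldoc (-0.48) and the lactate dehydrogenase Ldha (-0.52, adjusted p of up to 0.0776 without fasted rat 2). Gapdh had -0.72, -0.80, -0.67, -0.24 and -0.54 in refed rats, against 0.33, 0.33, 0.31, 0.10 and 0.35 in fasted rats, and changed by -0.04 with the platelet covariate.

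Of 22 genes of redox defence, 3 rose and 5 fell, where 3.3% of all genes rose and 5.98% fell. Nfe2l2, the NRF2 factor of the antioxidant response, had 0.07, 0.53, 0.19, 0.70 and 0.11 in refed rats, against -0.58, -0.15, -0.21, -0.37 and -0.15 in fasted rats (0.61 ± 0.13, adjusted p = 0.00362). Hmox1, the haem oxygenase (0.42, adjusted p 0.0603 without refed rat 12), and Keap1, the inhibitor of NRF2 (0.30, adjusted p of up to 0.140 without fasted rat 14), were the other rises. The mitochondrial dismutase Sod2 (-1.24 ± 0.29), the glutathione transferase Gstp1 (-0.99 ± 0.20), the glutathione reductase Gsr (-0.89 ± 0.19) and the peroxiredoxins Prdx6 (-0.59 ± 0.11) and Prdx3 (-0.47 ± 0.10) fell, with adjusted p between 0.00208 and 0.00629. With the platelet covariate the changes were 0.01 for Sod2, -0.15 for Gstp1 and -0.16 for Gsr, but -0.47 for Prdx6 and -0.43 for Prdx3.

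Autophagy and respiration showed smaller groups of falls. Of 31 autophagy and lysosome genes, 5 fell and 1 rose, where 5.98% of all genes fell and 3.3% rose. The falls were Map1lc3a and Map1lc3b, which coat autophagosomes (-0.62 and -0.25), their relative Gabarapl2 (-0.60), Atg12, which is conjugated to build the membrane (-0.51 ± 0.09, adjusted p = 0.00165), and the lysosomal membrane protein Lamp2 (-0.61). Atg12 had -0.23 to -0.01 in refed rats and 0.22 to 0.58 in fasted rats. With median centring, 0 of the 31 fell, and the adjusted p of Atg12 in limma was 0.088. Of 67 respiratory chain genes, 6 fell and 1 rose, close to the background shares of 5.98% and 3.3%, led by the cytochrome oxidase subunit Cox5a (-0.80) and the complex I subunit Ndufa1 (-0.72). Of 73 cytosolic ribosomal protein genes, 65 had a change above 0, but only Rpl26 passed (0.31, adjusted p of up to 0.106 without refed rat 15). The median of that list was 0.18, and -0.096 with median centring, so its direction rested on the scaling.

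Counts on the lists of immune signalling were small. Ccl2, the chemoattractant of monocytes, had 0.42, -0.29, -0.10, -1.099 and -0.13 in refed rats, against 0.84, 1.37, 0.23, 0.99 and 1.103 in fasted rats (-1.15 ± 0.28, adjusted p = 0.00791). Refed rat 3 exceeded fasted rat 8, so the groups overlapped. Cxcl10, an interferon-induced chemokine, changed by -1.01 (adjusted p of up to 0.0960 without fasted rat 14). Of 29 cytokine and chemokine genes, 2 fell and 2 rose, near the shares of all genes (5.98% and 3.3%). Beside these falls, Nfkb1 (0.26 ± 0.06, adjusted p = 0.00849) and the TNF receptor Tnfrsf1a (0.41, up to 0.0851 without refed rat 12) rose. Tlr6, a Toll-like receptor for bacterial lipopeptides, had -0.54, -0.02, -0.07, 0.20 and -0.28 in refed rats, against -0.60, -0.66, -0.55, -0.74 and -0.63 in fasted rats (0.50 ± 0.10, adjusted p = 0.00295). Tlr4, the receptor for lipopolysaccharide (0.46, up to 0.155 without refed rat 12), was the other of 18 Toll-like receptor genes that passed. Over all genes, 9.28% passed. Cebpd, a factor induced by glucocorticoids and inflammation, rose by 0.66 ± 0.16 (adjusted p = 0.0101). Of 34 genes of antigen presentation, 3 fell, near the 5.98% of all genes: B2m, the light chain of MHC class I (-1.16 ± 0.29), the class I gene RT1-S3 (-0.73, up to 0.0585 without refed rat 3) and the peptide-loading factor Tapbp (-0.36, up to 0.0510 without fasted rat 2). B2m changed by 0.11 with the platelet covariate. The median change of the 34 was -0.27, and -0.042 with the covariate, and 25 were below 0. At an unadjusted p of 0.05 in limma, 10 of the 34 were lower and 0 higher, where 2748 and 2652 of all 24367 genes were. Rat MHC class I genes are near-identical copies, so the level of a single one is uncertain. Among immediate early genes, 0 of 30 passed the limma test, while 2 were higher and 6 lower at an unadjusted p of 0.05, where 2652 and 2748 of all 24367 genes were.

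Marker genes of the nucleated blood cells did not pass the limma test, which 9.28% of all genes passed. The counts were 0 of 17 for monocytes, 0 of 18 for T cells, 0 of 11 for B cells, 0 of 17 for natural killer and cytotoxic cells, 0 of 13 for neutrophils, 0 of 18 for erythroid cells, 0 of 5 for dendritic cells and 0 of 6 for basophils, eosinophils and mast cells. Over all 24367 genes, 2652 were higher and 2748 lower in refed rats at an unadjusted p of 0.05. At that level, 5 of 17 monocyte genes were higher in refed rats and 0 lower, and 2 of 11 B cell genes were higher and 0 lower. At the same level 1 neutrophil gene and 1 T cell gene were higher and 1 of each lower, 2 erythroid genes and 1 dendritic gene were lower, and 0 natural killer and 0 basophil, eosinophil or mast cell genes moved. The mean of the monocyte genes was -0.17 to 0.28 in refed rats and -0.39 to 0.051 in fasted rats. The T cell mean was -0.060 to 0.13 in refed rats and -0.20 to 0.093 in fasted rats. Erythroid genes spread widely, from -1.19 to 0.34 in refed rats and from -0.88 to 0.61 in fasted rats. All of these ranges overlap between the groups, unlike that of the platelet genes.

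**Figure D4:**
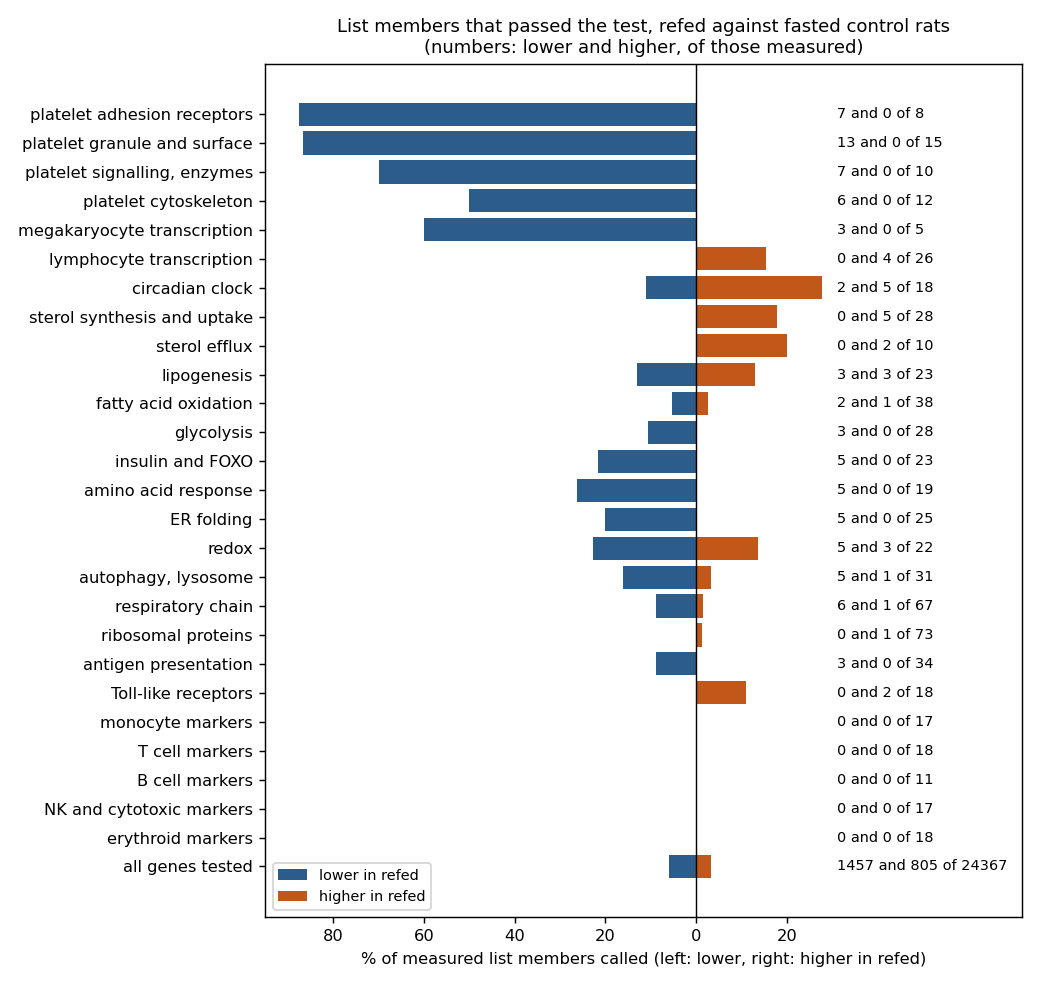
Share of the measured members of each gene list that passed an adjusted p of 0.05, with those lower in refed rats to the left and those higher to the right; the counts are printed beside the bars and the last row gives all 24367 genes. The 5 platelet and megakaryocyte lists reach furthest to the left, and the marker lists of the nucleated cells are empty.

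The same contrast in cafeteria rats used other animals: 5 refed and 5 fasted rats on other arrays. There, 346 genes passed (1.42%), 186 higher and 160 lower. Of the 805 control rises, 741 had the same sign in cafeteria rats, 132 passed there, and their median change was 0.18. Of the 1457 control falls, 1343 had the same sign, 62 passed, and their median change was -0.23. The difference between the diets, tested as an interaction, passed for 0 genes in limma (0%), and for 1818 at an unadjusted p of 0.05.

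Several rises were of like size in both diets. Bcl6 changed by 0.88 ± 0.15 in control rats and 0.86 ± 0.15 in cafeteria rats (adjusted p = 0.0062), a diet difference of 0.02 with a 95% interval from -0.43 to 0.47. For Id3 the changes were 0.97 in control rats and 0.83 in cafeteria rats (difference 0.14, -0.43 to 0.70), for Lpar6 0.55 and 0.64 (-0.09, -0.37 to 0.19), and for Per2 0.66 and 0.62 (0.04, -0.27 to 0.35). Nfil3 changed by -0.67 in control rats and -0.72 in cafeteria rats, and Hspa5 by -0.40 and -0.45. The platelet genes were further apart: their median change was -1.07 in control rats and -0.39 in cafeteria rats. The cafeteria platelet means were -0.43 ± 0.68 in refed rats (SD, n = 5, -1.38 to 0.36) and -0.04 ± 0.23 in fasted rats (SD, n = 5). Rgs18 changed by -1.73 in control rats and -0.26 in cafeteria rats (difference -1.47, interval -2.30 to -0.65). Cpt1a changed by -0.39 in control rats and 0.01 in cafeteria rats (difference -0.40, -0.62 to -0.17, unadjusted p = 0.0011). Msmo1 changed by 0.56 and 0.14 (0.42, 0.05 to 0.80), and Acat2 by 0.53 and 0.04 (0.49, 0.09 to 0.89), in control and cafeteria rats in that order. Map1lc3b changed by -0.25 in control rats and 0.09 in cafeteria rats (-0.34, unadjusted p = 0.00075). These intervals exclude 0 singly, but none of the differences passed the adjustment over all genes.

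**Figure D5:**
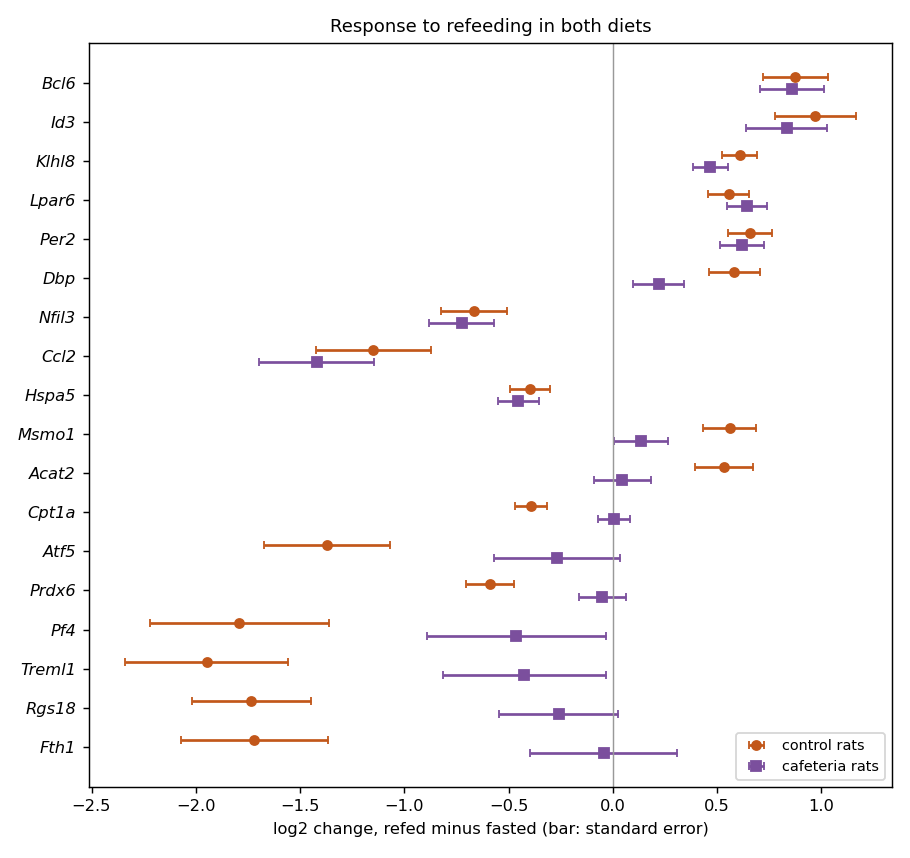
Log2 change between refed and fasted rats for 18 genes in control rats (circles) and cafeteria rats (squares), with bars of 1 standard error. Bcl6, Id3, Lpar6, Per2, Nfil3, Ccl2 and Hspa5 lie close together in both diets, and Cpt1a, Rgs18 and Fth1 lie near 0 in cafeteria rats.

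Control fed rats, 4 other animals sampled while eating, give a fed level beside the 2 groups. The comparisons with them share the refed or the fasted rats with the main contrast and are given side by side only. Refed against fed rats, 0 genes passed in limma (0%) and 1420 reached an unadjusted p of 0.05, but 798 passed with array weights. Fasted against fed rats, 44 genes passed (0.181%), 18 higher and 26 lower in fasted rats. That count rested on the processing: other signals and scalings gave 1 to 16 genes, and leaving out 1 rat gave 14 (without fasted rat 14) to 82 (without fasted rat 5). Bcl6 was among these, at -1.05 in fasted against fed rats (adjusted p = 0.0041) and -0.17 in refed against fed rats. Lpar6 stood at -0.53 in fasted against fed rats (adjusted p = 0.035) and 0.02 in refed against fed rats, Alas1 at -0.44 (adjusted p = 0.017) and 0.01, Scd2 at -0.56 (adjusted p = 0.044) and -0.05, and Tlr6 at -0.59 (adjusted p = 0.025) and -0.09. For these genes the refed mean differed from the fed mean by -0.17 to 0.02. They were named because they passed both contrasts with the fasted rats, so a fasted mean apart from both others follows from that choice. A difference that did not pass does not show equal levels. Per2 was 0.38 above fed rats after refeeding and 0.28 below them in fasted rats. Platelet genes had median differences of -0.54 in refed against fed rats and 0.37 in fasted against fed rats, on either side of a fed group whose 4 rats spread widely.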

How the data were processed

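The authors deposited 1 scanner file per array, made per the file headers with Agilent Feature Extraction 9.5.1.1, holding Cy5 and Cy3 spot intensity; the submitters' processing notes name rn4. From these intensities, background was corrected (normexp, offset 50), control spots and outlier flags were left out, and log2 Cy5/Cy3 ratios were loess-normalized within arrays. The authors also deposited a table of log2 values; its scale was found from the scanner values (slope 0.985 to 1.02), its column medians were 9.47 to 9.76 for refed and 9.37 to 9.52 for fasted control rats, and its normalization between arrays is not given in the sources used here. Probes with Cy5 well above background on at least 4 arrays were kept, 28242 of 41012, and spots of a probe were averaged. A gene was represented by its brightest probe, and 24367 genes were tested.

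All 29 arrays entered 1 limma 3.58.1 fit (R 4.3.3, lmFit and eBayes) with a mean per group; p-values were Benjamini-Hochberg adjusted over all genes, and the threshold was 0.05. The number of arrays limits the precision. The code was tested on simulated data. Nothing in the labels says more of how replicates were taken than that each array is a rat. Genes were named if called and on a list, if among the 20 largest changes or 10 smallest p-values in a direction with the same sign in 4 alternative value sets, if among the 2 largest changes of a list, or if in the metabolic set (Insr, Lepr, Txnip, Ucp2, Ppara, Scd, Fasn, Cpt1a, Slc27a2 and Pdk4, with both Srebf genes). Members and lists were chosen with earlier results of these data known. Alternatives were other signals and scalings, filters, slide and extraction run as blocks, the platelet mean as a covariate, array weights and leaving out each rat. Some genes are not reported here.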

Additional observations from a re-analysis of the deposited data

Results flagged for a closer look

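Values of single rats were compared within the 5 refed and the 5 fasted control rats, for named genes and for the mean of each list. A rat is given here where it lay far from the other 4 of its group by Dixon's criterion, which was met in 23 of 350 groups examined (6.57%); chance gives about 1 in 20. No cause was tested.

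Refed rat 12 stood high in Cd226 (0.35, others -0.61 to -0.57), Lamp2 (0.30, others -0.38 to -0.31), Bcl2l1, an inhibitor of apoptosis (-0.055, others -0.55 to -0.42), and the mitochondrial carrier Ucp2 (0.10, others -0.33 to -0.21). The same rat was high in the mean of the monocyte genes (0.28, others -0.17 to -0.081) and low in that of ribosome biogenesis (-0.065, others 0.054 to 0.068). Refed rat 9 was high in the mean of the B cell genes (0.19, others -0.22 to -0.17), and refed rat 6 was high in that of the proteasome genes (0.057, others -0.035 to -0.018).

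Fasted rat 2 stood high in Sec11c (1.75, others 0.097 to 0.41), Derl1 (0.73, others -0.12 to -0.018), and the means of the folding genes (0.86, others -0.033 to 0.066) and of the cell cycle genes (0.29, others -0.042 to 0.050). Fasted rat 5 was high in Ddit3 (0.59, others 0.13 to 0.26), Eif4ebp1 (0.60, others 0.12 to 0.26), Gsr (0.59, others 0.21 to 0.32) and Insr (0.22, others -0.087 to -0.0021), and low in the mean of the metabolic set (-0.45, others -0.087 to 0.032). Fasted rat 14 was low in Fads1 (0.14, others 0.53 to 0.68) and Keap1 (-0.68, others -0.24 to -0.11), and high in the cell cycle gene Cks2 (1.42, others 0.43 to 0.71) and the interferon-induced Gbp2 (0.37, others -0.024 to 0.089). Fasted rat 11 was low in Gapdh (0.098, others 0.31 to 0.35) and in the mean of the glycolysis genes (-0.089, others 0.016 to 0.046).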

How the results depend on the processing

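No paired analysis was possible because the refed (3, 6, 9, 12 and 15) and fasted (2, 5, 8, 11 and 14) control rats share no replicate number. The count of 2262 genes between refed and fasted rats was 1679 to 2165 when 1 rat was left out, lowest without refed rat 6; rises were 460 (without refed rat 12) to 777, against 805, and falls 1179 to 1404, against 1457. Median centring gave 809 genes (25 rises, 784 falls), the authors' deposited values 3942 genes (2967 rises), array weights 1358 rises, and the platelet covariate 7 genes (5 rises, 2 falls); that table centred on array medians, chosen after seeing the data, gave 2426. Of 132 genes examined, 61 kept direction and call under median centring, 126 with extraction run as a block, 11 with the covariate and 111 to 127 without 1 rat. Median centring reversed Rpl26 (-0.014). The covariate left 0 of 36 platelet falls. It is built from 23 of the platelet genes and sets their average change to about 0, so some of their values lie above 0 by construction. The genes whose sign changed with it had limma adjusted p of 0.26 to 0.996. They were Gp5 (0.38), Ppbp (0.35), Vwf (0.35), Ptgs1 (0.19), Ltbp1 (0.16), Clu (0.13) and B2m (0.11). The smaller ones were Thbs1 (0.087), Alox12 (0.082), Mmrn1 (0.0096), Sod2 (0.0075) and Tuba4a (0.0020). Platelet falls were 32 to 36 without 1 rat.

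Fasted against fed rats, the 44 genes became 16 with processed signals, 2 with median centring, 3 with Cy5 alone, 1 with the authors' table, 3 with it centred, 15 with no filter, 23 per probe, 16 with slide as a fixed block, 11 with the covariate, 102 with array weights and 14 to 82 without 1 rat, lowest and highest without fasted rats 14 and 5. Refed against fed rats, array weights gave 798 genes and every setting without 1 rat 0, as for the diet difference. The cause of these differences was not tested. Probes near background limit what can be seen: Thbs1 was well above it on 4 of 5 refed arrays.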
